A study of Mus musculus with 13 samples.

Results

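Chromatin marks and OLIG2 binding were described at 10 mouse genes of astrocytes and of gliogenesis, chosen by name: the astrocyte genes Gfap, Aqp4, Aldh1l1, Slc1a2, Slc1a3, S100b and Gja1 and the nuclear factor I genes Nfia, Nfib and Nfix. They are 10 of the 21938 protein-coding genes of the GENCODE M21 annotation on mm10 (GRCm38). At each gene, H3K4me3 (K4) and H3K27me3 (K27) peaks in the gene or within 2 kb of any of its TSSs, and OLIG2 peaks in the gene or 5 kb upstream, were collected. The series holds 13 samples with 1 library per condition, from untreated neural stem cells (NSCs), oligodendrocyte precursor cells (OPCs) and newly formed oligodendrocytes (NFOs). The strain label of all samples is C57BL/6, but the growth protocol describes the NSCs as a purchased culture from E14.5 cortices of CD-1 mice, grown with EGF and FGF. OPCs and NFOs were panned from brains at postnatal day 7, after depletion of microglia and endothelial cells, OPCs on PDGFRα antibody and NFOs on GalC antibody. The OLIG2 peaks of NSCs and the 3 input libraries were not used here. RNA levels were not analysed here, and without replicates no value carries an error between animals and no difference was tested.

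Astrocytes arise from the same neural stem cells as oligodendrocytes, after a switch from neuron to glia production in which the nuclear factor I (NFI) proteins and STAT signalling act on astrocyte promoters such as that of Gfap. OLIG2 is a basic helix-loop-helix factor that binds E-box sequences and is needed for the oligodendrocyte lineage. H3K4me3 marks active or poised promoters, H3K27me3 is laid down by the Polycomb complex at repressed genes, and a promoter with overlapping peaks of both is called bivalent.

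The sequences of 3 OLIG2 peaks and 1 H3K4me3 peak are given because the results below describe these peaks. The first is the OLIG2 peak of OPCs with the highest fold enrichment at the 10 genes, in an intron near the 5′ end of Slc1a2 (chr2:102663597-102663826). The other OLIG2 peaks are the single one that OPCs and NFOs shared, in an intron of Nfib (chr4:82447246-82447475, OPC boundaries), and the OPC peak in an intron of Nfia (chr4:98040487-98040716). The H3K4me3 peak of Slc1a2 in NFOs (chr2:102658256-102658555) ended before the first TSS of the gene. All are from the plus strand of GRCm38, read from the RefSeq assembly, and they overlap no annotated untranslated region. Capitals mark E-boxes (CANNTG) in the OLIG2 peaks and the NFI motif TTGGC, or its complement GCCAA, in the H3K4me3 peak.
Slc1a2 OLIG2 peak in OPCs: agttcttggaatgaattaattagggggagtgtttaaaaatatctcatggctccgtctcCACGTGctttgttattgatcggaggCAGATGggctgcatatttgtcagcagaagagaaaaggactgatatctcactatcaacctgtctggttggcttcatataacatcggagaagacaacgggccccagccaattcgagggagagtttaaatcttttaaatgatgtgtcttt
Nfib OLIG2 peak in OPCs, shared with NFOs: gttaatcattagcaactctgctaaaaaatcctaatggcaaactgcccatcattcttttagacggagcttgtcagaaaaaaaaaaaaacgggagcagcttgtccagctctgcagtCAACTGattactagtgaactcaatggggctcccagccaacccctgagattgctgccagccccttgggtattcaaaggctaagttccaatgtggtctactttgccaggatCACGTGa
Nfia OLIG2 peak in OPCs: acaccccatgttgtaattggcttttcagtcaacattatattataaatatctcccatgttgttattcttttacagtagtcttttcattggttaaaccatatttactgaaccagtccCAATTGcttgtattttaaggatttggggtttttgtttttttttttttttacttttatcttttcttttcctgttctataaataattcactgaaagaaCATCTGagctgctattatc
Slc1a2 H3K4me3 peak in NFOs: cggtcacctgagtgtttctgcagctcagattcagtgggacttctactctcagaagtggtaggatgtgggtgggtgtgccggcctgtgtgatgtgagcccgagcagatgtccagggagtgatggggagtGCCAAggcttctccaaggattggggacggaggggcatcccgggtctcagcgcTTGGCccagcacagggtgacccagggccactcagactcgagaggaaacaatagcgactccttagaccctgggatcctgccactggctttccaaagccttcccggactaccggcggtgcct

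The lists held 12688 to 36069 histone peaks per library and 7384 OLIG2 peaks in OPCs and 16911 in NFOs. The filter of the study kept a histone peak above a fold enrichment of 3.5 and an OLIG2 peak above 5, each at an FDR below 0.05, where fold enrichment is the ratio of the ChIP signal to its control in the peak. Read numbers are unknown, and peak names mark the NSC histone reads as single-end and the others as paired-end, so widths and fold enrichments are not on 1 scale across cell types and for the 10 genes ranks within a list are given beside the main values. For other genes the values are given without ranks and are not to be ordered across cell types. The antibody label of each histone sample names the other mark than its title. Titles were used, and in the lists titled H3K4me3 38.6 to 62.7% of protein-coding genes had a peak near a TSS, against 7.67 to 12.8% in those titled H3K27me3.

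The cell types were checked at their marker genes. Olig2 carried H3K4me3 near a TSS in all 3 cell types (fold enrichments of 10.0, 8.69 and 4.90 in NSCs, OPCs and NFOs). Sox10, a driver of the oligodendrocyte lineage, was bivalent in NSCs, with H3K4me3 at 3.604 and H3K27me3 at 5.61, and had H3K4me3 alone at 8.88 in OPCs and 19.2 in NFOs. Pdgfra, the receptor used to pan OPCs, had H3K4me3 at 8.41, 8.63 and 8.23. Mbp, a myelin gene, had H3K4me3 at 4.09 in NSCs and 5.01 in OPCs and no peak near a TSS in NFOs, so this myelin promoter went against its label there. The neuronal gene Rbfox3 had H3K4me3 at 5.39 in NSCs and 5.10 in OPCs, and H3K27me3 at 6.29 in OPCs and 4.41 in NFOs. Of 8 microglial genes, H3K4me3 near a TSS was at 1, in OPCs, and at 0 in the other cell types, and Aif1 had no peak in any list. Of 6 endothelial genes, 2 had H3K4me3 in each cell type, and of 12 neuronal genes 9, 9 and 6 did. Over all protein-coding genes 62.7%, 60.5% and 38.6% did in NSCs, OPCs and NFOs. H3K27me3 was near a TSS at 1, 3 and 3 of the 6 endothelial genes and at 4, 6 and 7 of the 12 neuronal genes. The shares over all protein-coding genes were 9.50%, 12.8% and 7.67%. The 2 endothelial genes with H3K4me3 also had H3K27me3 in OPCs and NFOs, and 1 of them did in NSCs. How far other cells in the preparations added to the values below was not tested.

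H3K4me3 was found near a TSS at 7 of the 10 genes in NSCs and in OPCs and at 6 in NFOs. Over all protein-coding genes the shares were 62.7%, 60.5% and 38.6% in the same order. The mark was present in all 3 cell types at 5 genes, Slc1a2, Slc1a3, Nfia, Nfib and Nfix, against 37.2% of protein-coding genes. Among the genes with the mark, the median rank of the fold enrichment, as a percentile of all genes with a peak in that list, was 74.2, 58.9 and 48.3. These ranks cover different genes, as Aldh1l1 had the mark in NSCs alone, S100b lacked it in NSCs and Gja1 lacked it in NFOs. The median highest fold enrichment over all protein-coding genes with a peak was 8.53, 6.50 and 5.43 in the same order. A lower value can come from fewer cells that carry the mark, from less of it per cell or from the reads and depth of a list. These cannot be told apart here.

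**Figure D1:**
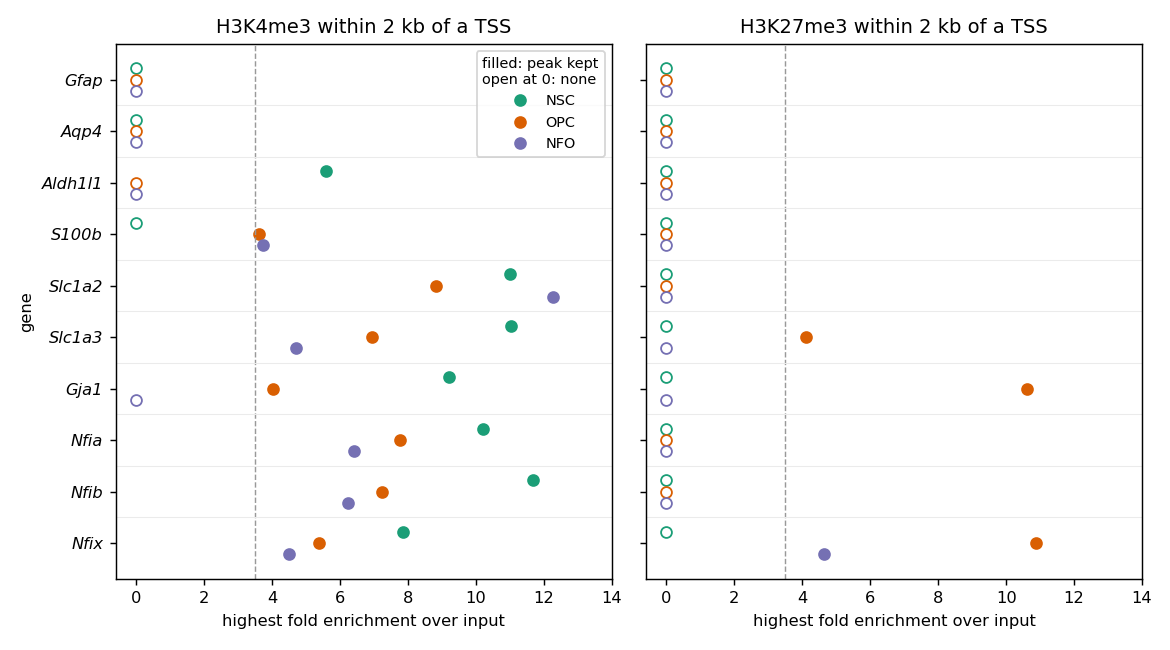
Highest fold enrichment (x axis) of H3K4me3 (left) and H3K27me3 (right) peaks within 2 kb of a TSS for each gene (y axis) in NSCs, OPCs and NFOs, with the dashed line at the filter of 3.5 and open circles at 0 where no peak was kept. H3K4me3 points of Slc1a3, Gja1, Nfia, Nfib and Nfix lie in the order NSC, OPC, NFO from high to low, and Slc1a2 is highest in NFOs. The median over all protein-coding genes with an H3K4me3 peak falls in that order too (8.53, 6.50 and 5.43). The order alone therefore does not set these genes apart. The 4 H3K27me3 points lie in OPCs (Slc1a3, Gja1, Nfix) and NFOs (Nfix).

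Gfap and Aqp4, genes of mature astrocytes, had neither mark near a TSS. Gfap (ENSMUSG00000020932.14, chr11:102887336-102900912, minus strand), which encodes the intermediate filament protein of astrocytes, had no peak of either mark near any of its 3 TSSs in any list. Its only listed peak was an intronic H3K27me3 peak in NFOs, 1051 bp wide with a fold enrichment of 3.64, just above the filter and 3.80 kb from the nearest TSS. Aqp4 (chromosome 18), the water channel of astrocyte endfeet, had no listed H3K4me3 or H3K27me3 peak at all. These 2 genes of the 10 lacked both marks near a TSS in every cell type, as did 30.7% of protein-coding genes.

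Aldh1l1 and S100b had H3K4me3 near a TSS in different cell types. Aldh1l1 (chr6:90486427-90600203), a folate enzyme used to mark astrocytes, had H3K4me3 near a TSS in NSCs alone, at 5.59, the 14.2 percentile of genes with a peak. That peak lay at an internal TSS, 64.7 kb from the 5′ end of the gene, and OPCs and NFOs had no listed H3K4me3 peak in the gene. The RefSeq start of Aldh1l1 (chr6:90550793), looked up after the data were seen, is 4 bp from a TSS used here. The NSC peak lay within 2 kb of that start, and the intronic peaks described next lie upstream of it. The strongest H3K27me3 peak of Aldh1l1 in OPCs was intronic, at 7.87, the 88.7 percentile of that list, 13.8 kb from the 5′ end, with a neighbour at 4.87. In an intron of Aldh1l1 about 30.2 kb from the 5′ end, narrow peaks of H3K4me3 (6.47) and H3K27me3 (4.63) in NSCs and of H3K27me3 in OPCs (6.28) overlapped. S100b (chr10:76253853-76261159), a calcium-binding protein of astrocytes that some oligodendrocyte lineage cells also make, showed the opposite order, with no listed peak in NSCs and H3K4me3 at 3.61 in OPCs and 3.74 in NFOs. Both values were just above the filter, at the 0.678 and 8.29 percentiles, and the 2 peaks, 930 bp and 539 bp wide, did not overlap.

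The glutamate transporter genes both carried H3K4me3 in all 3 cell types but differed in order. Slc1a2 (GLT-1, chr2:102658659-102790784) had fold enrichments of 11.01 in NSCs, 8.84 in OPCs and 12.3 in the NFO list. Its rank barely moved, from the 81.9 percentile in NSCs to 83.5 in OPCs and 84.1 in NFOs, and it had no listed H3K27me3 peak in any cell type. The NSC and OPC peaks, 1791 bp and 2040 bp wide, ran into the gene, whereas the NFO peak printed above was 300 bp wide, and its centre was 0.254 kb upstream of the first TSS. The −log10 of the FDR of the NFO peak was 133.9. Slc1a3 (GLAST, chr15:8634124-8710764, minus strand), the transporter of radial glia as well as astrocytes, had H3K4me3 at 11.05 in NSCs and at 6.95 and 4.72 in OPCs and NFOs. The ranks of these values were the 82.2, 58.9 and 38.0 percentiles. The peak at the TSS was 5599 bp wide in NSCs and 3102 bp in OPCs, with these values, whereas in NFOs it was 1858 bp wide at 4.37, and the 4.72 belonged to a separate upstream peak. An H3K27me3 peak of Slc1a3 in OPCs (4.11, 212 bp) lay 1.23 kb upstream of the TSS, and that upstream H3K4me3 peak of NFOs (186 bp) began at the same base, 8711886.

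Gja1 had a different set of marks in each cell type. Gja1 (connexin 43, chr10:56377330-56402513) encodes the main gap junction protein of astrocytes and is also made by radial glia. In NSCs its promoter had an H3K4me3 peak of 4039 bp with a fold enrichment of 9.20, at the 60.5 percentile, and no H3K27me3 near a TSS. In OPCs the H3K4me3 peak was 1457 bp wide at 4.03, the 4.36 percentile, and overlapped an H3K27me3 peak of 1769 bp at 10.6, the 93.5 percentile of genes with that mark. A second OPC H3K27me3 peak (4.94, 172 bp) lay upstream without H3K4me3, so that the gene did not meet the definition of a bivalent gene, which allows no peak of either mark alone. In NFOs neither mark was left after the filter, and an H3K27me3 peak at 3.35 was listed below it at the same place.

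**Figure D2:**
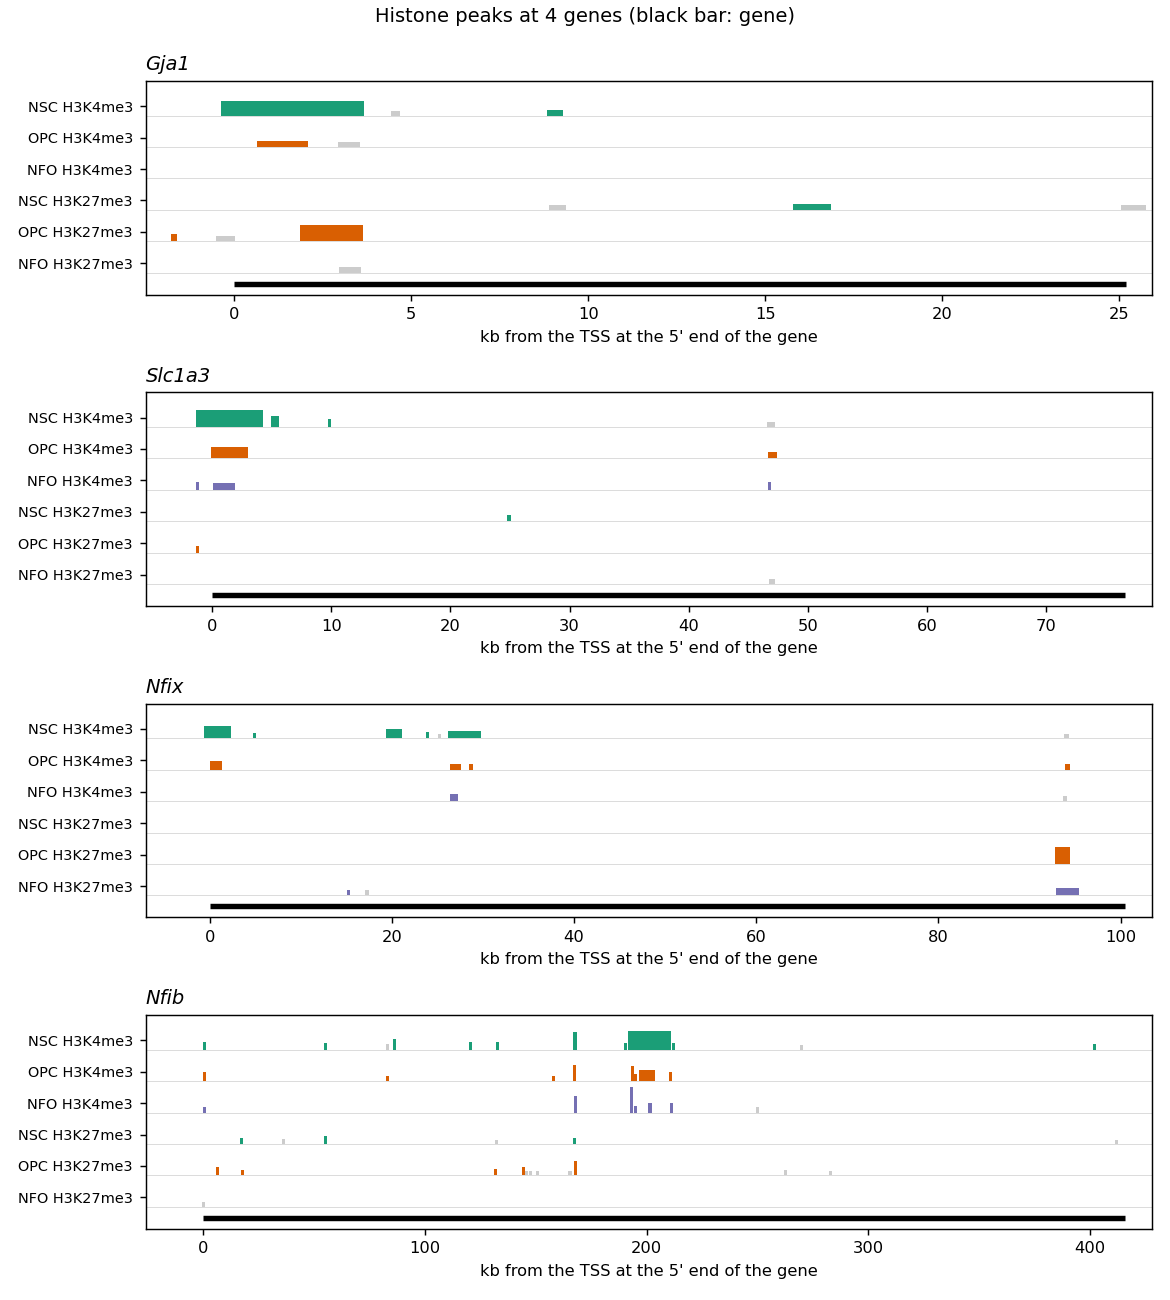
Listed histone peaks along Gja1, Slc1a3, Nfix and Nfib, by distance in kb from the TSS at the 5′ end (x axis) in the 6 lists (rows), with bar height in proportion to fold enrichment, grey bars below the filter and the narrowest peaks widened to be visible. At Gja1 the OPC H3K27me3 peak (10.6) lies where the NSC H3K4me3 peak of 4039 bp ends, and at Nfix the H3K27me3 peaks of OPCs and NFOs lie about 94 kb into the gene.

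All 3 NFI genes carried H3K4me3 in every cell type. The highest fold enrichment near any TSS fell from NSCs to OPCs to NFOs. So did the median over all protein-coding genes with a peak (8.53, 6.50 and 5.43). Single promoters of the NFI genes did not all follow that order. These transcription factors are required for the onset of astrocyte production and are also expressed in neurons and oligodendrocyte precursors. Nfia (chr4:97772734-98118874) had 10.2, 7.77 and 6.42 in NSCs, OPCs and NFOs, at the 74.2, 72.1 and 60.0 percentiles. Nfib (chr4:82290173-82705750, minus strand) had 11.7, 7.22 and 6.24 near a TSS, at the 86.9, 63.7 and 58.7 percentiles. These peaks lay at internal TSSs, and at the 5′ end of Nfib the values were 5.07, 5.98 and 3.51. Nfix (chr8:84699876-84800344, minus strand) was the weakest, at 7.85, 5.37 and 4.49 and the 39.2, 26.0 and 32.5 percentiles. Its rank thus did not follow the order of its fold enrichments. The NSC and OPC values of Nfix belonged to the 5′ end, where NFOs had no listed H3K4me3 peak. At the promoter about 27 kb into Nfix the highest values were 4.43, 3.90 and 4.49 in NSCs, OPCs and NFOs.

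The H3K4me3 domains of Nfia and Nfib were among the widest of the NSC list, and several narrower peaks lay in the same regions in the other cell types. In NSCs the domain of Nfib spanned 19408 bp around TSSs about 200 kb into the gene, wider than 99.98% of peaks in the list, and that of Nfia spanned 9986 bp, wider than 99.92%. The widest Nfix peak of NSCs spanned 3636 bp, wider than 94.7% of the list and narrower than those of Slc1a3 and Gja1. In OPCs the Nfib and Nfia regions held peaks of up to 7159 bp and 5871 bp, and in NFOs peaks of up to 2075 bp and 1121 bp. Over all 10 genes together the H3K4me3 peaks covered 53532, 29980 and 11082 bp of the genes in the 3 cell types, while the median width over each whole list was 939, 1048 and 268 bp. Of these totals the long genes Nfib and Nfia made up the larger part, with 24440, 12402 and 4962 bp at Nfib and 9037, 6288 and 2632 bp at Nfia. The most enriched H3K4me3 peak of NFOs at the genes lay within the region of the NSC domain of Nfib. That peak was 279 bp wide at 16.3, 6.77 kb upstream of the nearest TSS. It overlapped a peak of 826 bp at 9.31 in OPCs. In the RefSeq table Nfia also has a start 191 kb upstream of the annotation used here, and H3K4me3 within 2 kb of it was at 11.4, 7.85 and 7.10, the same order. The RefSeq start of Slc1a2, an internal TSS, had no H3K4me3 within 2 kb in any cell type, and 1 of the 4 Nfix starts, 5.71 kb from the nearest TSS used here, had it in NSCs alone (5.72). These starts were looked up after the data were seen.

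H3K27me3 was found near a TSS at 0 of the 10 genes in NSCs, at 3 in OPCs (Slc1a3, Gja1 and Nfix) and at 1 in NFOs (Nfix). The shares over all protein-coding genes were 9.50%, 12.8% and 7.67%. The NSC list held no H3K27me3 peak near a TSS of any of them even below the filter. No gene of the 10 was a bivalent gene in any cell type, where 3.17%, 2.35% and 1.09% of protein-coding genes were in the same order. A bivalent gene has overlapping peaks near a TSS and none of either mark alone. Peaks of both marks did overlap near a TSS at Gja1 and Nfix in OPCs, but both genes also had peaks of 1 mark alone. At Nfix the OPC peak (10.9, 1628 bp, the 94.1 percentile) and the NFO peak (4.65, 2582 bp, the 55.0 percentile) overlapped each other about 94 kb from the 5′ end, near an internal TSS towards the 3′ end of the gene. An H3K4me3 peak of OPCs at 3.96 lay inside the OPC peak. The main Nfix promoters, at the 5′ end and about 27 kb into the gene, held no H3K27me3 peak after the filter.

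H3K27me3 peaks at these genes were also counted away from their TSSs, without a count for other genes of the same length. After the filter 6, 12 and 3 peaks lay at the 10 genes in NSCs, OPCs and NFOs, near the TSSs or elsewhere, with median widths of 307, 212 and 1051 bp beside 311, 263 and 697 bp over the whole lists, and they covered 3520, 5139 and 3833 bp of the genes. Nfib held 5 of the 12 OPC peaks. The strongest, 250 bp at 9.40, lay 168 kb into the gene in an intron, inside H3K4me3 peaks of all 3 cell types (11.1, 10.2 and 10.8), and an NSC H3K27me3 peak at 3.93 lay there too. In all, 3 of 6 NSC and 3 of 12 OPC H3K27me3 peaks at the genes overlapped H3K4me3 of the same cell type, and 16.0% and 8.55% of the whole lists did, while 0 of 3 did in NFOs, beside 13.2% of that list.

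OLIG2 peaks were found at 4 of the 10 genes in OPCs (Aqp4, Slc1a2, Nfia and Nfib) and at 4 in NFOs (Slc1a2, Slc1a3, Nfia and Nfib). Over all protein-coding genes 15.0% had an OLIG2 peak in OPCs and 25.0% in NFOs. Slc1a2, Nfia and Nfib had one in both cell types, as did 8.27% of protein-coding genes. Long genes hold more peaks: of the 2492 protein-coding genes of 100 kb or more, 45.1% had an OLIG2 peak in OPCs and 68.1% in NFOs, a background chosen after the data were seen. Of the 5 genes that long here, Aldh1l1, Slc1a2, Nfia, Nfib and Nfix, 3 had a peak in each cell type.

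The most enriched OLIG2 peak of the 10 genes in OPCs lay in an intron of Slc1a2, 4.43 kb from the nearest TSS, at a fold enrichment of 22.9, above 96.5% of peaks in the OPC list. NFOs had no listed peak at that place. The NFO peak of Slc1a2 lay in another intron, 27.4 kb from the 5′ end, at 5.30, above only 3.16% of its list. At Slc1a3 the order was the reverse, with no listed peak in OPCs and NFO peaks at 16.1 and 10.5 (the 92.7 and 65.7 percentiles of the list) near the 3′ end of the gene, 76.1 and 74.1 kb from the 5′ TSS, the first in an untranslated region. The Aqp4 peak of OPCs, at 9.002 and the 55.4 percentile, lay in an intron 701 bp from an internal TSS, and was the only OLIG2 peak of the 10 genes within 2 kb of a TSS after the filter.

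Nfia and Nfib held several OLIG2 peaks each, all distant from a TSS. Nfia had a peak at 6.65 in OPCs (the 24.8 percentile) and peaks at 7.38, 6.24 and 9.27 in NFOs (30.9, 15.4 and 53.7), 9.42 to 201 kb from the nearest TSS, and none of the NFO peaks overlapped the OPC peak. Nfib had peaks at 6.18 and 9.46 in OPCs (17.0 and 60.0) and at 6.43, 13.0 and 8.76 in NFOs (17.6, 82.0 and 48.0). The OPC peak at 9.46 and the NFO peak at 13.0 overlapped, 258 kb into the gene and 52.0 kb from the nearest TSS, which made 1 shared peak of the 5 OPC and 9 NFO peaks at the genes (20.0% of the OPC peaks, against 13.3% over the whole OPC list). A further Nfib peak of OPCs at 4.79, below the filter, overlapped H3K4me3 peaks of all 3 cell types. Of the peaks after the filter, 0 of 5 in OPCs and 0 of 9 in NFOs overlapped H3K4me3 or H3K27me3 of the same cell type, where 12.9% and 7.72% of all OPC peaks and 6.92% and 1.75% of all NFO peaks did.

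**Figure D3:**
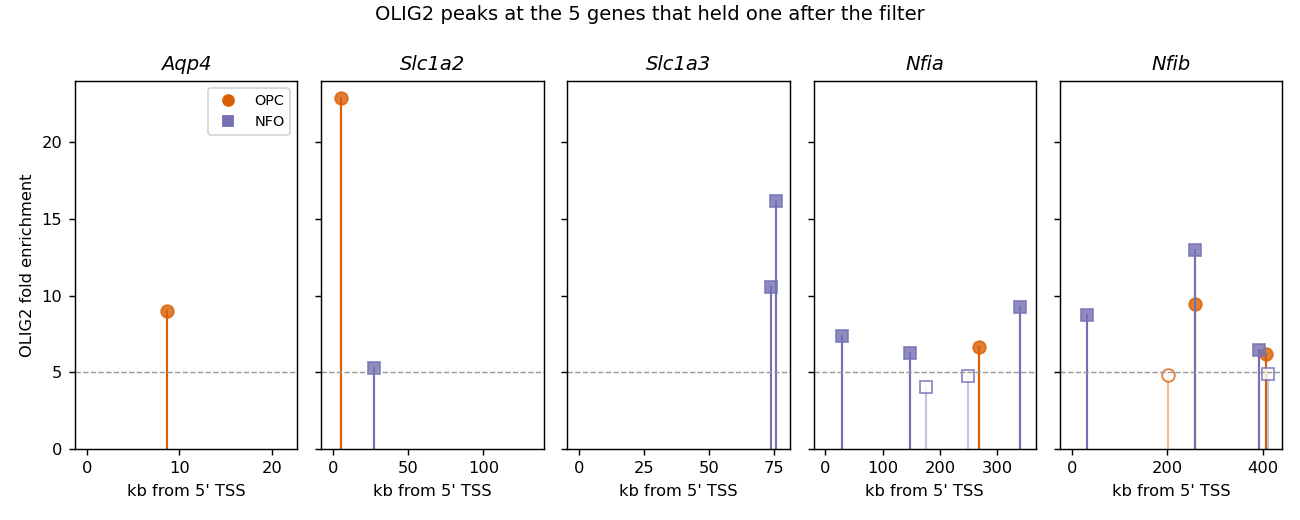
OLIG2 peaks by distance in kb from the TSS at the 5′ end (x axis) and fold enrichment (y axis) at the 5 genes with a peak after the filter, with circles for OPCs, squares for NFOs, the dashed line at the filter of 5 and open symbols below it. Slc1a2 has its high peak (22.9) in OPCs and Slc1a3 its peaks (16.1 and 10.5) in NFOs, and a circle and a square share a position at Nfib (9.46 and 13.0).

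Gfap, Aldh1l1, S100b, Gja1 and Nfix had no OLIG2 peak after the filter in either cell type, and Gja1 had a listed NFO peak at 2.69. The nearest peaks to their TSSs after the filter were at Gfap 16.7 kb away in NFOs (13.7) and 116.3 kb in OPCs (18.6). At Aldh1l1 they were 15.9 kb away in OPCs (11.95) and 84.7 kb in NFOs (5.99), and at Nfix 41.7 kb in NFOs (12.8) and 259.7 kb in OPCs (10.4). Those of S100b were 55.1 and 72.7 kb away and those of Gja1 225.7 and 375.8 kb away, in NFOs and OPCs. A distance assigns no peak to a gene.

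In the printed OLIG2 peaks, Slc1a2 had 2 E-boxes, 1 of them CAGATG, with the nearest 29 bp from the summit, 2 TTGGC motifs and 1 STAT motif (TTC and GAA with any 3 bases between). The shared Nfib peak had 2 E-boxes, 1 of them 2 bp from the summit, and 1 TTGGC motif, and the Nfia peak had 2 E-boxes, the nearest 3 bp from the summit, 1 TTGGC and 1 STAT motif. Motifs were searched on both strands in the 230 bp around each summit, and the named E-box forms are also matches to CANNTG.

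Over the OLIG2 peaks of the 10 genes, E-boxes were present in 3 of 5 OPC and 7 of 9 NFO peaks, beside 70.5% and 68.3% of all peaks. CAGATG was in 2 of 5 and 3 of 9 (19.1% and 17.1% of all), CAGCTG in 0 of 5 and 1 of 9 (14.3% and 10.2%), and CATATG in 0 of 5 and 0 of 9 (6.31% and 6.43%). TTGGC was in 4 of 5 OPC and 5 of 9 NFO peaks, beside 33.2% and 30.9% of all peaks, and the STAT motif in 2 of 5 and 0 of 9, beside 6.67% and 7.17%. The full palindromic NFI site was in none of them and in 2 and 1 peaks of the whole lists. The Aqp4 peak held none of these motifs. With so few peaks these counts are a description, and a match is not a bound site.

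In the RefSeq promoter table, 8 of the 10 genes have a start, 11 starts in all as Nfix has 4. In the 250 bases before it, a CANNTG match was present at 8 of 11 starts, TTGGC at 4 and the STAT motif at 2 (1 of Nfix and that of Slc1a3), beside 66.2%, 41.5% and 7.02% of all promoters. The Gfap window held none of these motifs, which says only that the letters are not in this window.

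The other genes of the astrocyte programme gave a wider view. Of 20 further astrocyte genes, 18, 14 and 10 had H3K4me3 near a TSS in NSCs, OPCs and NFOs, respectively, and 0, 4 and 1 had H3K27me3. In percent these were 90, 70 and 50 for H3K4me3, beside 62.7, 60.5 and 38.6 of all protein-coding genes, and 0, 20 and 5 for H3K27me3, beside 9.50, 12.8 and 7.67. The 4 in OPCs were Gjb6, another astrocyte connexin (6.79, and 4.85 in NFOs, without H3K4me3 in any cell type), the growth factor receptor gene Fgfr3 (4.34), the bicarbonate transporter gene Slc4a4 (4.53) and the intermediate filament gene Vim (4.14), the last 3 also with H3K4me3 near a TSS in OPCs. OLIG2 peaks were at 2 of these 20 genes in OPCs (10.0%) and 6 in NFOs (30.0%), near the 15.0% and 25.0% of all protein-coding genes. Mlc1, an astrocyte membrane protein, had them in OPCs (9.25) and NFOs (6.74), as did the receptor gene Gpr37l1 (10.3 and 7.97). Mlc1 had H3K4me3 only in NSCs (7.36), and Gpr37l1 only in OPCs (6.00) and NFOs (5.75).

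Of 20 regulators of gliogenesis, 20, 20 and 15 had H3K4me3 near a TSS in NSCs, OPCs and NFOs, 100%, 100% and 75.0% beside 62.7%, 60.5% and 38.6% of all protein-coding genes. H3K27me3 was at 4, 6 and 3 of them, 20.0%, 30.0% and 15.0% beside 9.50%, 12.8% and 7.67%. In NSCs the genes with H3K27me3 were Nfic (3.90), Il6st, the shared receptor of the STAT pathway (4.03), Nr2f1 (4.89) and Nr2f2 (6.53), of which the Nr2f genes encode COUP-TF factors of the neuron to glia switch. In OPCs they were Nfic (4.19), Sox9 (3.73), Bmpr1b, a BMP receptor (10.99), Nr2f1 (5.16), Nr2f2 (15.3) and Lhx2 (7.30), and in NFOs Bmpr1b (4.32), Nr2f2 (8.24) and Lhx2 (4.50). Nr2f2 was bivalent in NSCs and NFOs, and Sox9 in OPCs.

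OLIG2 peaks were at 10 of these 20 regulators in OPCs and 10 in NFOs, 50% in each. Over all protein-coding genes the shares were 15.0% and 25.0%, and over those of 100 kb or more 45.1% and 68.1%. Of the 20 regulators, 6 had peaks in both cell types (30.0%), beside 8.27% of all protein-coding genes. The lengths of the regulators were not taken into account. Sox9, a factor of the neural stem cell and glial fate, had 36.0 in OPCs and 14.4 in NFOs, and Notch1 had 24.9 and 22.0. Zbtb20 had 18.4 and 10.4, the kinase gene Jak1 12.01 and 6.87, Id3, an inhibitor of helix-loop-helix factors, 11.3 and 8.30, and Smad4, of BMP signalling, 7.76 and 19.7.

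**Figure D4:**
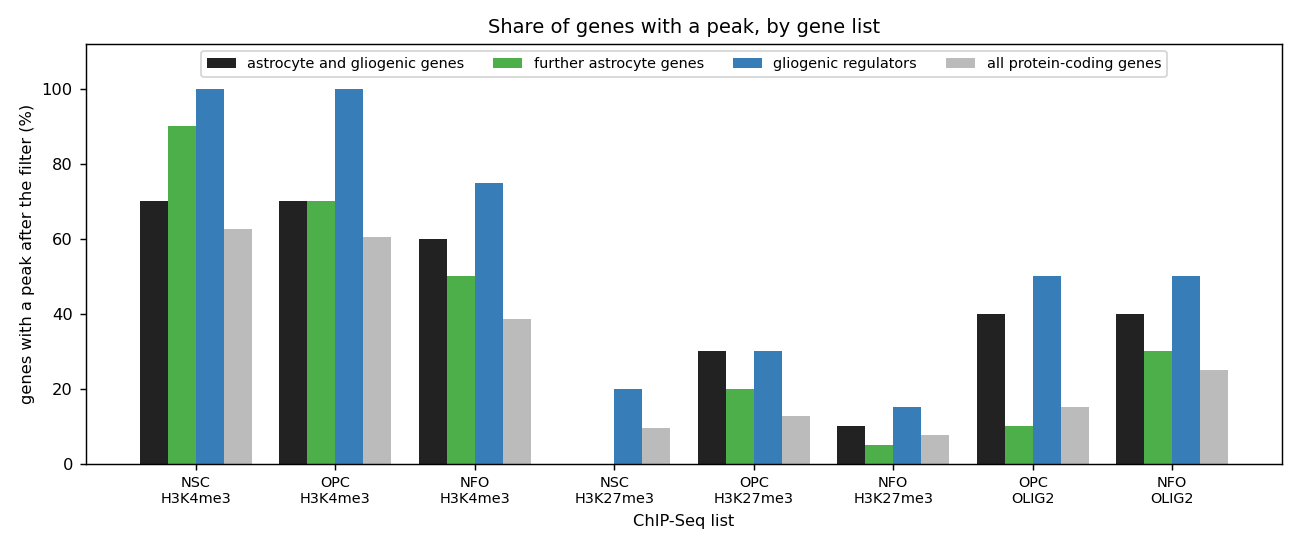
Share of genes with a peak after the filter (y axis, %) in each ChIP-Seq list (x axis) for the 10 astrocyte and gliogenic genes, 20 further astrocyte genes, 20 gliogenic regulators and all 21938 protein-coding genes, histone marks within 2 kb of a TSS and OLIG2 in the gene or 5 kb upstream. H3K27me3 in NSCs is at 0 for the first 2 lists against 9.50% of all genes, and the regulators reach 100% for H3K4me3 in NSCs and OPCs.

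The genes most like Nfia over the 8 lists, by Euclidean distance of log2(1 + highest fold enrichment), were Igsf9b (0.22), Npas3 (0.26) and Nmt1 (0.28). For Gfap the measure names nothing, since all of its 8 values were 0, a profile it had in common with 5937 other protein-coding genes.

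RIP-Seq, in which RNA bound by OLIG2 is precipitated and sequenced beside an IgG control, is labelled as from NFOs, whereas the study's methods describe NSCs. Of the 10 genes only Slc1a2 had listed sites, as did 580 protein-coding genes in all. The lists held 367 sites on its transcripts for OLIG2 and 286 for IgG, at 219 and 183 distinct positions. Tags over these positions came to 2412 for OLIG2 and 2741 for IgG, so the control was the higher, without scaling for depth. No site met the criteria of the study, a p-value below 0.01, more than 2 times the tags of IgG and a transcript RPKM above 1, and the highest RPKM of its transcripts was 0.457.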

How the data were processed

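Peaks of 8 ChIP-Seq libraries and sites of 2 RIP-Seq libraries were analysed, grouped by sample title. Per the study's methods, reads were mapped to mm10 with Bowtie2, unique reads were kept and blacklisted regions were excluded. MACS2 called broad peaks of the histone marks and SPP those of OLIG2, for each library. The deposited lists give the fold enrichment, a ratio from the authors' peak callers, and the −log10 of the FDR. They also hold called peaks below the authors' filter, which was applied here. The authors' ASPeak lists give tag counts per site as deposited, without normalization, with a p-value for each site and the RPKM of the transcript as the authors computed it. Depth is unknown from these files.

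Here peaks were joined to GENCODE M21 protein-coding genes (21938) by position. The members and lists were chosen with earlier results of these data known. Named are the 10 members, genes of the 2 related lists with OLIG2 peaks in both cell types or with H3K27me3 near a TSS, 6 cell type markers and the nearest profiles. The other lists held markers of the oligodendrocyte lineage, neurons, microglia and endothelium. Of 15 oligodendrocyte lineage genes, 9, 11 and 7 had H3K4me3 near a TSS in NSCs, OPCs and NFOs (60.0%, 73.3% and 46.7%). Over all protein-coding genes 62.7%, 60.5% and 38.6% did. H3K27me3 was at 3, 1 and 0 of the 15, 20.0%, 6.67% and 0% beside 9.50%, 12.8% and 7.67% of all protein-coding genes. The assignment was tested on simulated peaks. No test, interval or p-value was computed, as each condition has 1 library. Alternatives were all listed peaks, a fold enrichment above 5 for histone marks and 10 for OLIG2, 1 kb around a TSS, 1 TSS per gene, 2 kb upstream for OLIG2, overlaps of 200 bp or 50% and other RIP-Seq criteria. Python 3.11.15, NumPy 2.4.6, pandas 2.3.3, pysam 0.24.0 and Matplotlib 3.10.9 were used.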

Additional observations from a re-analysis of the deposited data

How the results depend on the processing

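Of 64 values recomputed under the alternatives, 53 stayed within 1.5 times the value reported. With all listed peaks, 3 genes had H3K27me3 near a TSS in NFOs in place of 1, and H3K27me3 covered 7267 bp of the genes in NSCs and 5779 bp in NFOs in place of 3520 and 3833 bp. With the stricter fold enrichment, 3 genes had H3K4me3 in NFOs in place of 6, at a median percentile of 29.4 in place of 48.3, 0 had H3K27me3 in NFOs, and OLIG2 was at 1 gene in OPCs and 2 in NFOs in place of 4 and 4. Within 1 kb of a TSS, 1 gene was bivalent in OPCs, where the upstream H3K27me3 peak of Gja1 lies outside the window. With 1 TSS per gene, 0 genes had H3K27me3 in NFOs, since the Nfix peak lies at an internal TSS. Without a minimum RPKM, 8 RIP-Seq sites of Slc1a2 met the other criteria. The cause of the other changes was not tested.

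No paired analysis was possible because each condition has 1 library. For the same reason no library was left out. The lists give no read numbers, so the absence of a peak is the absence of a call at an unknown depth, and peaks just above a filter, such as those of S100b and Gfap, depend on it.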
